A study of Arabidopsis thaliana with 6 samples.

Results

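Molecular chaperones of the cytosol keep proteins soluble, refold them after damage and hand those beyond repair to degradation. HSP70 proteins bind exposed hydrophobic stretches and release them under the control of ATP, J-domain partners and nucleotide exchange factors, HSP90 proteins act later on clients that are nearly folded, and HSP101 pulls proteins back out of aggregates. In plants, heat shock transcription factors induce many of these genes by binding heat shock elements, and many of them are also known to respond to arsenite and other agents that attack protein thiols.

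The 10 genes described here are a set of cytosolic chaperone genes and partners, chosen by locus identifier with earlier results of these data known. They are the disaggregase gene HSP101 (AT1G74310), the HSP90 genes HSP90.1 (AT5G52640) and HSP90.2 (AT5G56030), the HSP70 genes HSP70 (AT3G12580), HSC70-1 (AT5G02500), Hsp70-2 (AT5G02490) and AT3G09440, and the partner genes ROF2 (AT5G48570), BAG6 (AT2G46240) and MBF1C (AT3G24500). They make up 10 of the 26551 loci with usable values, and all 10 passed the filter on low values that left 18813 loci for testing. MBF1C encodes a transcriptional coactivator of the heat response and not a chaperone, so the label of the set fits it only in the wider sense.

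The plants were 6-day-old seedlings of Arabidopsis thaliana, ecotype Col-0, grown in shaken liquid medium under long days. The DMMTA group received dimethylmonothioarsenate (DMMTA), a methylated arsenic compound that carries sulfur in place of an oxygen, at 15 µM for 6 h, and the control group received none. Each group has 3 libraries of polyadenylated RNA, labelled biological replicates. The labels do not say whether these came from separate cultures or days, so p-values measure only the spread between these samples.

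Depth was estimated as the lowest read number at which low deposited values of short genes fell near whole reads. A multiple of it would fit as well. The estimates were about 66400000 to 110000000 reads in the DMMTA libraries and 72100000 to 135000000 reads in the control libraries. Levels are given as TPM, transcripts per 1000000 after scaling by coding length, and log2 fold changes are DMMTA over control on the log2(TPM + 0.5) scale, which understates the change of low genes. A gene was called when its Benjamini-Hochberg adjusted p from limma was under 0.05. By this rule 3273 loci, 17.4% of those tested, were higher in DMMTA and 1979 loci, 10.5%, were lower. The number higher was 2181 without DMMTA replicate 2 and 2076 without DMMTA replicate 3, and the number lower was 1132 without DMMTA replicate 3. The median log2 fold change of all loci tested was 0.04. The 6 shoot marker genes measured summed to between 20691 and 23480 TPM in DMMTA libraries and between 22633 and 25421 TPM in control libraries. The 7 root markers measured, of 8 listed, summed to between 34.0 and 53.3 TPM in DMMTA libraries and between 92.7 and 103 TPM in control libraries. None of the shoot or root markers measured was at 0 in all libraries, and 3 root markers (CASP1, COBL9 and EXPA7) and 1 shoot marker (RCA) were called lower while none was called higher. The root markers did not move as one. CASP1 alone had a mean of 12.3 TPM in DMMTA and 47.4 TPM in control. The 4 root markers not called were PLT1, SCR and SHR, at log2 fold changes of -0.61, -0.23 and -0.20, and MYB36, at 0.47. MYB36 was at 7.05 TPM in DMMTA and 4.98 TPM in control, higher without overlap, as for 27.8% of loci tested. The groups also did not overlap for PLT1 and SCR, which were lower in DMMTA. The median log2 fold change of the 7 root markers was -0.61. The part of these marker differences in the results below was not tested. In bulk RNA of seedlings, fewer cells of a type and less RNA per cell cannot be told apart.

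All 10 genes were higher in DMMTA than in control, against a background of 17.4% of loci tested. Because the 10 were chosen with earlier results of these data known, this count and those below describe the set and are no independent support. The count was 9 without DMMTA replicate 1, without DMMTA replicate 3 or without control replicate 3, HSC70-1 being the gene lost each time. At least 2-fold higher by the log2 fold change were 9 of the 10, against 6.19% of loci tested, and at least 4-fold higher were 7, against 1.73%. The 3 DMMTA libraries lay above the 3 control libraries for all 10 genes, against 27.8% of loci tested. The median log2 fold change of the 10 was 2.36, and single values reached from 0.50 for HSC70-1 to 4.14 for HSP70.

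**Figure D1:**
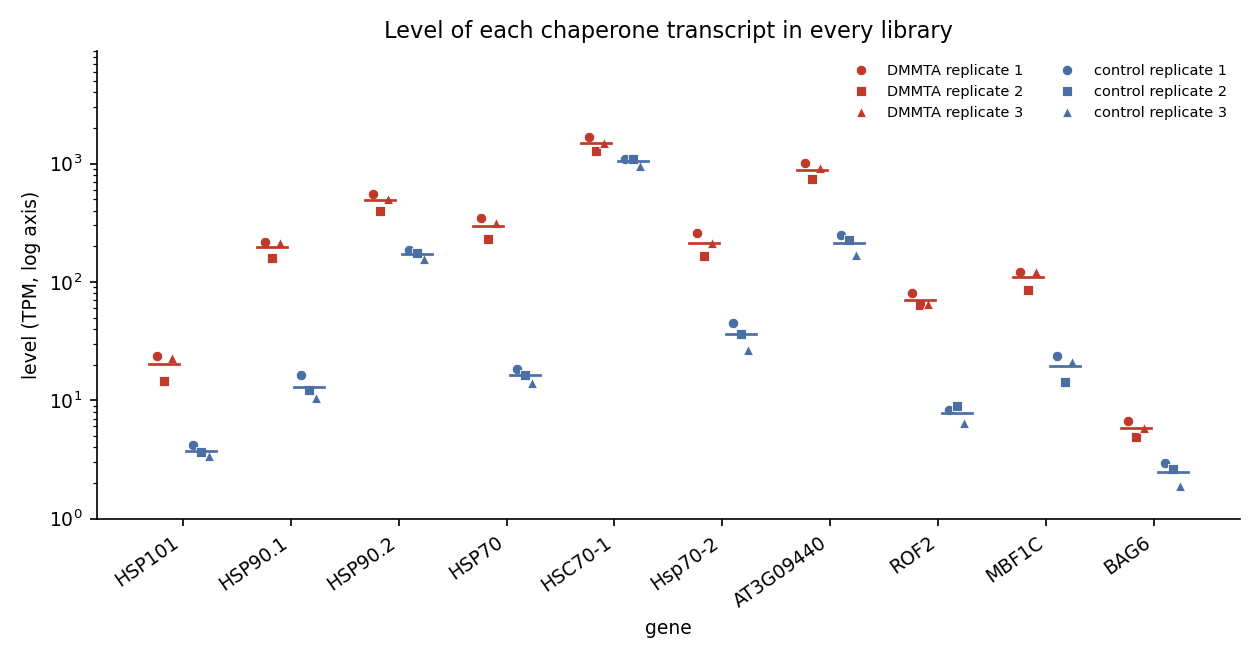
Level of each of the 10 genes in TPM on a log axis, with 1 point per library (DMMTA red, at left; control blue, at right; symbol shape gives the replicate number) and a line at the mean of 3 libraries. The groups do not overlap for any gene, and the gap is widest for HSP70 (18.3-fold) and narrowest for HSC70-1 (1.42-fold).

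The letters of heat shock elements were looked for in front of these genes because the element is the best known switch of the family. Such an element is built of GAA blocks in alternating orientation. A pair of blocks was searched as GAANNTTC or TTCNNGAA, and a run of 3 blocks as GAANNTTC followed by NNGAA or TTCNNGAA followed by NNTTC, on both strands; each run of 3 also holds 2 overlapping pairs. In the 500 bases before the start codon, a run of 3 blocks was found in 5 of the 10 genes and in 1.2% of 27444 genes of the RefSeq annotation of TAIR10.1, and a pair was found in 8 of the 10 and in 33.9% of all genes. The window was chosen after annotated gene starts were seen to lie at uneven distances from the start codon. With 300 bases before the annotated gene start, 1 of the 10 genes held a run of 3 against 0.485% of genes, and 3 held a pair against 19.3%.

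The sites below are 30 bases each, read 5′ to 3′ on the strand of the gene from TAIR10.1, with the blocks and the bases between them in capitals. They are shown because the 4 HSP70 genes and HSP90.1 all carry a run of 3 blocks while their log2 fold changes reach from 0.50 to 4.14.
HSP70, chr3:3993845-3993874, minus strand: ttactcgtGAACGTTCTCGAAagctctttg
HSC70-1, chr5:556553-556582, minus strand: caaccatcGAACATTCTCGAAacattttaa
Hsp70-2, chr5:552685-552714, minus strand: taattacaGAACATTCTGGAAactcaagtc
AT3G09440, farther site, chr3:2905893-2905922, minus strand: atcgaaccGAACATTCTCGAAcctttttaa
AT3G09440, nearer site, chr3:2905764-2905793, minus strand: gagccatcGAACCTTCTCGAAactcgagta
HSP90.1, chr5:21352254-21352283, plus strand: aacgaaaaGAACTTTCTGGAAttcgtttgc
The site of HSP70 ended 164 bases before the start codon, that of HSC70-1 227 bases, that of Hsp70-2 128 bases, those of AT3G09440 269 and 140 bases, and that of HSP90.1 282 bases before it. The sites of the HSP70 genes fell in exons annotated as 5′ UTR, and that of HSP90.1 lay upstream of a gene whose annotation begins at its first coding base, within the annotated neighbouring gene AT5G52630. The other pair near HSP90.1 also lay within AT5G52630.

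Pairs of blocks outside a run of 3 were the only form found in 3 further genes. They are shown for contrast with the runs of 3.
HSP101, chr1:27940322-27940351, minus strand: ataaaataagcGAAAATTCcacgtgacatc
MBF1C, farther site, chr3:8918357-8918386, plus strand: gaataattcggTTCTGGAAgtaagggatcc
MBF1C, nearer site, chr3:8918569-8918598, plus strand: atcatctctaaGAACGTTCcagagacgaaa
BAG6, chr2:18986088-18986117, plus strand: agaaacgaagaGAAAATTCcagatttttca
HSP90.2 and ROF2 held neither form in this window. A match of letters is a description of the sequence and not a measured binding site, and a lack of one says only that these letters are not in the window.

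**Figure D2:**
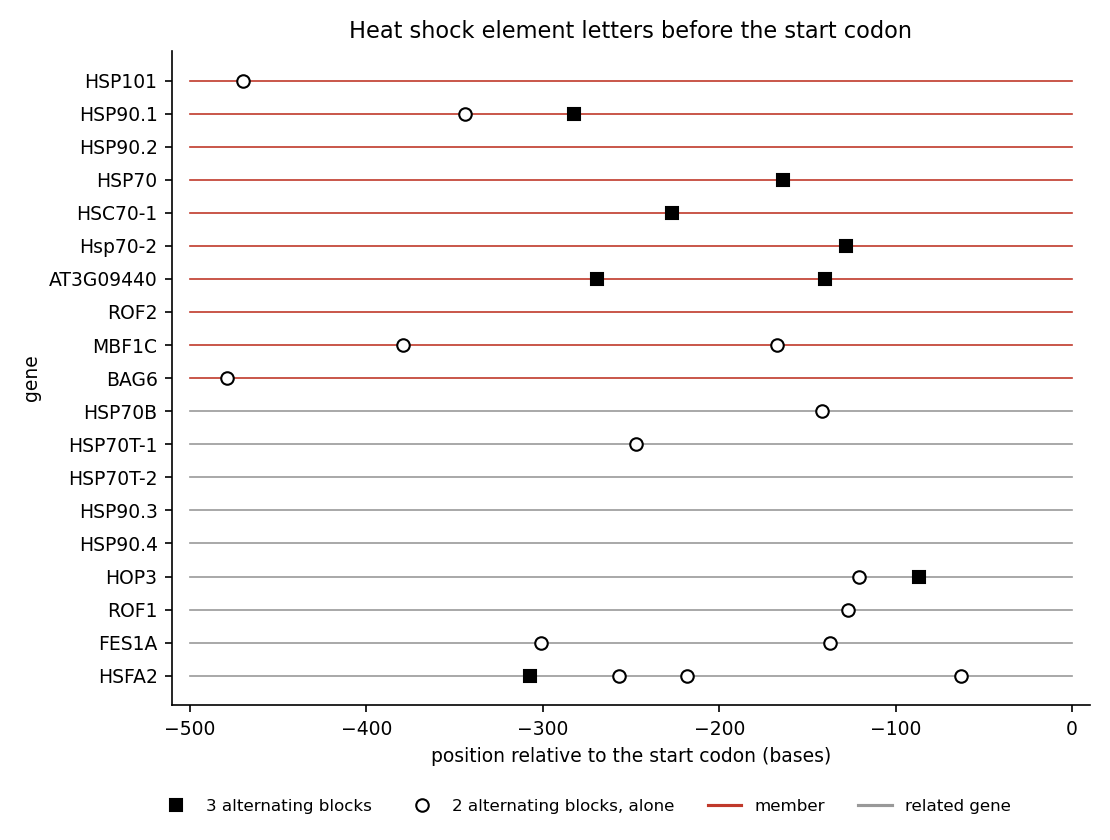
Positions of the searched letters in the 500 bases before the start codon (at 0) of the 10 genes (red lines) and 9 related genes (grey lines), with filled squares for runs of 3 blocks and open circles for pairs outside such runs. Runs of 3 stand in 5 of the 10 genes, with 2 in AT3G09440, and none of the searched letters stand in HSP90.2 or ROF2.

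HSP101 encodes the hexameric ClpB-type ATPase that, with HSP70, dissolves aggregates and is needed for acquired heat tolerance. Its level was 23.5, 14.6 and 22.9 TPM in DMMTA libraries, against 4.20, 3.62 and 3.38 TPM in control libraries. The lowest DMMTA library was thus well above the highest control library. The mean was 20.3 ± 4.98 TPM in DMMTA and 3.73 ± 0.426 TPM in control (SD, n = 3 each), a 5.44-fold difference (log2 fold change 2.27 ± 0.19 SE, adjusted p = 7.54e-05). The 2 annotated coding sequences of the gene gave 5.28-fold and 5.68-fold. By mean summed level HSP101 was in 9th place of 10 in both groups, and with 1 coding sequence per locus it was in 10th place in control, below BAG6.

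HSP90.1, the heat-inducible cytosolic HSP90, had the second largest log2 fold change of the set. It was at 217, 159.8 and 212 TPM in DMMTA libraries, against 16.4, 12.3 and 10.5 TPM in control libraries. The mean was 196 ± 31.8 TPM in DMMTA and 13.1 ± 3.02 TPM in control (SD, n = 3 each), 15.0-fold apart (log2 fold change 3.87 ± 0.18 SE, adjusted p = 5.93e-06). By log2 fold change it ranked 28th of the 18813 loci tested.

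HSP90.2 is one of 3 cytosolic HSP90 genes that lie close together on chromosome 5 and are expressed without stress. It was at 559, 401 and 506 TPM in DMMTA libraries, against 185, 177 and 157 TPM in control libraries. The mean was 489 ± 80.3 TPM in DMMTA and 173 ± 14.6 TPM in control (SD, n = 3 each), 2.82-fold apart (log2 fold change 1.49 ± 0.13 SE, adjusted p = 0.000111). Of the 50-base stretches of its coding sequence, 23.6% occur exactly in another locus, most of them in HSP90.3, so reads could be assigned to the wrong copy. Summed with HSP90.3 and HSP90.4, the log2 fold change was 1.33. HSP90.3 alone was also higher, at a log2 fold change of 1.20 ± 0.12 SE (adjusted p = 0.000164), with 366, 300.4 and 352 TPM in DMMTA libraries against 161, 151 and 129 TPM in control libraries. HSP90.4 was higher by a log2 fold change of 0.40 ± 0.10 SE (adjusted p = 0.0231), with 24.5, 21.9 and 22.9 TPM in DMMTA libraries against 18.6, 17.6 and 16.2 TPM in control libraries. The call of HSP90.4 was lost without DMMTA replicate 1 (adjusted p = 0.0821), replicate 2 (adjusted p = 0.0515) or replicate 3 (adjusted p = 0.082).

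The 4 cytosolic HSP90 genes together had 1167, 883 and 1093 TPM in DMMTA libraries, against 382, 357 and 313 TPM in control libraries. The make-up of this pool differed too. HSP90.1 made up 18.7 ± 0.653% of it in DMMTA and 3.70 ± 0.520% in control, HSP90.3 made up 32.5 ± 1.34% in DMMTA and 42.0 ± 0.534% in control, and HSP90.2 made up 46.5 ± 1.25% in DMMTA and 49.4 ± 0.777% in control (SD, n = 3 each). With 1 coding sequence per locus in place of the sum, HSP90.2 made up 30.7% in DMMTA and 33.2% in control, and HSP90.1 made up 24.2% in DMMTA and 4.87% in control. HSP90.3, and not HSP90.2, was then the largest part in both groups, with 42.1% in DMMTA and 55.3% in control. For each of the summed shares and for the sum the groups did not overlap, and the two-sided exact permutation test gave p = 0.1, the smallest value it can give with 3 libraries against 3.

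HSP70 (AT3G12580), a strongly heat-inducible cytosolic HSP70, had the largest log2 fold change of the set. It was at 344, 231 and 315 TPM in DMMTA libraries, against 18.2, 16.4 and 13.9 TPM in control libraries. The mean was 297 ± 58.8 TPM in DMMTA and 16.2 ± 2.18 TPM in control (SD, n = 3 each), 18.3-fold apart (log2 fold change 4.14 ± 0.16 SE, adjusted p = 3.86e-06). By log2 fold change it ranked 20th of the 18813 loci tested.

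Hsp70-2 and AT3G09440, other cytosolic HSP70 genes, followed with smaller changes from higher control levels. Hsp70-2 was at 260.3, 164 and 212 TPM in DMMTA libraries, against 45.3, 36.2 and 26.8 TPM in control libraries, 5.88-fold apart in the mean (log2 fold change 2.55 ± 0.21 SE, adjusted p = 7.52e-05). AT3G09440 was at 1017, 735 and 910.1 TPM in DMMTA libraries, against 250.3, 225 and 169.5 TPM in control libraries, 4.13-fold apart (log2 fold change 2.05 ± 0.17 SE, adjusted p = 6.81e-05). In DMMTA it was the second most abundant of the 10, below HSC70-1 and above HSP90.2 with no overlap between libraries, while in control its range overlapped that of HSP90.2. This place rests on the sum of 4 identical coding sequences, each at 222 TPM in DMMTA. With 1 coding sequence per locus in place of the sum, rescaled, AT3G09440 was 4th by mean level in DMMTA at 300.4 TPM, behind HSC70-1, HSP70 (402 TPM) and HSP90.2 (337 TPM), and 3rd in control. A protein-coding gene on the opposite strand, AT3G09430, overlaps AT3G09440 outside its coding sequence.

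HSC70-1, the main constitutive HSP70 of the cytosol, was the most abundant of the 10 in both groups and changed least. It was at 1695, 1270.3 and 1493 TPM in DMMTA libraries, against 1095, 1090.3 and 949 TPM in control libraries. The mean was 1486 ± 212 TPM in DMMTA and 1045 ± 82.8 TPM in control (SD, n = 3 each), 1.42-fold apart (log2 fold change 0.50 ± 0.13 SE, 95% confidence interval 0.21 to 0.79, adjusted p = 0.0206). This is the only call among the 10 that depended on single libraries: it was lost without DMMTA replicate 1 (adjusted p = 0.0652), without DMMTA replicate 3 (adjusted p = 0.0736) and without control replicate 3 (adjusted p = 0.0569).

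Summed over 7 cytosolic HSP70 genes, these transcripts had 3319, 2404 and 2934 TPM in DMMTA libraries, against 1412, 1371 and 1162 TPM in control libraries, 2.19-fold apart in the mean. HSC70-1 made up 51.6 ± 1.08% of the pool in DMMTA and 79.6 ± 2.06% in control. AT3G09440 made up 30.7 ± 0.238% in DMMTA and 16.3 ± 1.58% in control, and HSP70 made up 10.2 ± 0.581% in DMMTA and 1.23 ± 0.0546% in control (SD, n = 3 each). With 1 coding sequence per locus in place of the sum, AT3G09440 made up 15.0% in DMMTA and 8.44% in control, and HSP70 made up 20.0% in DMMTA and 2.55% in control. The groups did not overlap for the summed level or for any of the 3 shares from summed levels, and each had the smallest two-sided exact permutation p that 3 libraries against 3 can give, 0.1. The remainder of the pool was almost wholly Hsp70-2, with 7.30 ± 0.509% in DMMTA and 2.72 ± 0.457% in control.

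**Figure D3:**
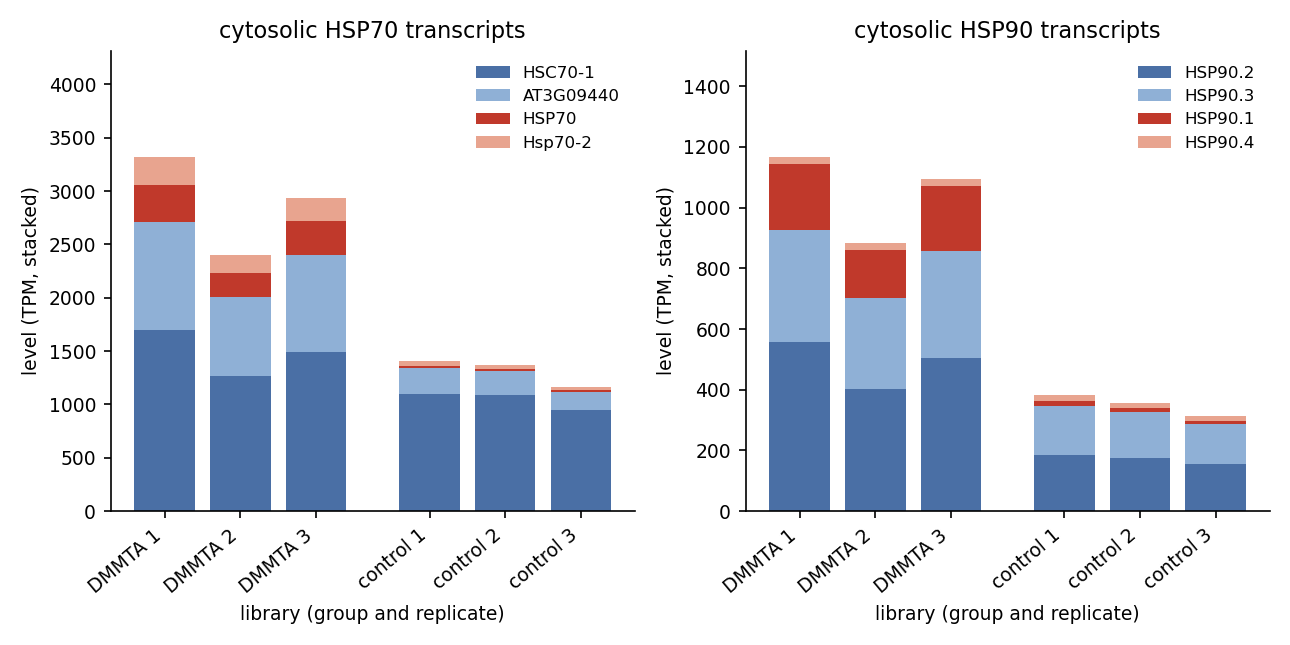
Stacked levels in TPM of the 4 most abundant cytosolic HSP70 genes (left) and of the 4 cytosolic HSP90 genes (right) in each library, DMMTA libraries at left in each panel. HSC70-1 takes 50.9% to 52.8% of the HSP70 pool in DMMTA libraries and 77.6% to 81.7% in control libraries, and HSP90.1 takes 18.7% of the HSP90 pool in DMMTA and 3.70% in control on average.

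The strongly heat-inducible relative HSP70B (AT1G16030) was not called. It was at 1.82, 1.70 and 1.67 TPM in DMMTA libraries, against 1.77, 1.57 and 1.28 TPM in control libraries, and the groups overlapped (log2 fold change 0.13 ± 0.16 SE, 95% confidence interval -0.22 to 0.49, adjusted p = 0.556). The upper end of that interval lay below the lower ends for HSP70, Hsp70-2 and AT3G09440, and overlapped the interval of HSC70-1. Before the start codon HSP70B held a pair of blocks but no run of 3, as did ROF1 and FES1A, which were called higher. HSP90.3 and HSP90.4, also called higher, held neither form, and HOP3 and HSFA2, again called higher, held a run of 3. HSP70T-2 (AT2G32120), not called by limma (log2 fold change 0.40 ± 0.16 SE, adjusted p = 0.1), held neither form. HSP70T-1 (AT1G56410), too low to be tested, held a pair. The relation of these letters to the calls was not tested. Of the 6 cytosolic HSP70 and HSP110 genes outside the set, 5 were tested, with a median log2 fold change of 0.33. Higher were 2 of the 5, against 17.4% of all loci tested. These were HSP70-15 and HSP70-14, HSP110-type proteins that act on HSP70 as nucleotide exchange factors. HSP70-15 was at 194, 151 and 171 TPM in DMMTA libraries, against 93.7, 89.5 and 69.9 TPM in control libraries (log2 fold change 1.03 ± 0.14 SE, adjusted p = 0.000879). HSP70-14 had a log2 fold change of 0.33 ± 0.09 SE (adjusted p = 0.0254), and its call was lost without DMMTA replicate 1, 2 or 3 (adjusted p = 0.0888, 0.0558 and 0.0892 in that order).

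ROF2, a peptidyl-prolyl isomerase of the FKBP family that binds HSP90 and takes part in heat tolerance, had the third largest log2 fold change of the set. It was at 80.1, 63.9 and 65.5 TPM in DMMTA libraries, against 8.23, 8.87 and 6.44 TPM in control libraries. The mean was 69.8 ± 8.95 TPM in DMMTA and 7.84 ± 1.26 TPM in control (SD, n = 3 each), 8.90-fold apart (log2 fold change 3.08 ± 0.14 SE, adjusted p = 6.22e-06). Its close relative ROF1 was at a higher level in both groups, with 239, 181 and 203 TPM in DMMTA libraries against 94.7, 82.2 and 78.0 TPM in control libraries (log2 fold change 1.28 ± 0.13 SE, adjusted p = 0.000164). The 95% confidence interval of ROF2, 2.75 to 3.41, lay wholly above that of ROF1, 0.99 to 1.56.

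MBF1C, a coactivator that accumulates in heat and is needed for basal heat tolerance, was at 120.2, 85.1 and 122 TPM in DMMTA libraries, against 23.5, 14.3 and 21.1 TPM in control libraries. All 3 DMMTA libraries thus stood above the highest control library by more than 3-fold. The mean was 109 ± 20.9 TPM in DMMTA and 19.6 ± 4.80 TPM in control (SD, n = 3 each), 5.56-fold apart (log2 fold change 2.46 ± 0.20 SE, adjusted p = 7.25e-05). An annotated antisense RNA, AT3G04685, reaches the coding sequence of MBF1C. The libraries were strand-specific but the use of strand in counting is not given, so reads of the pair cannot be told apart here.

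BAG6, a calmodulin-binding protein of the BAG family of HSP70 regulators, was the least abundant of the 10 by summed level. It was at 6.69, 4.92 and 5.81 TPM in DMMTA libraries, against 2.96, 2.61 and 1.90 TPM in control libraries. The mean was 5.81 ± 0.884 TPM in DMMTA and 2.49 ± 0.539 TPM in control (SD, n = 3 each), 2.33-fold apart (log2 fold change 1.08 ± 0.18 SE, adjusted p = 0.00273). Even here about 542 reads stood behind the lowest library by the estimated depths. The other 8 BAG and MBF1 genes listed gave no call: limma called 0 of them, 0 had an unadjusted p under 0.05, limma-voom called 0, and their log2 fold changes lay between -0.17 and 0.22. Over all loci tested, limma called 17.4% higher and 10.5% lower. With only 8 genes, 0 calls is not read as a departure from those shares. The intervals of MBF1A and MBF1B, -0.06 to 0.37 and -0.36 to 0.10, lay wholly below that of MBF1C, 1.99 to 2.92.

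**Figure D4:**
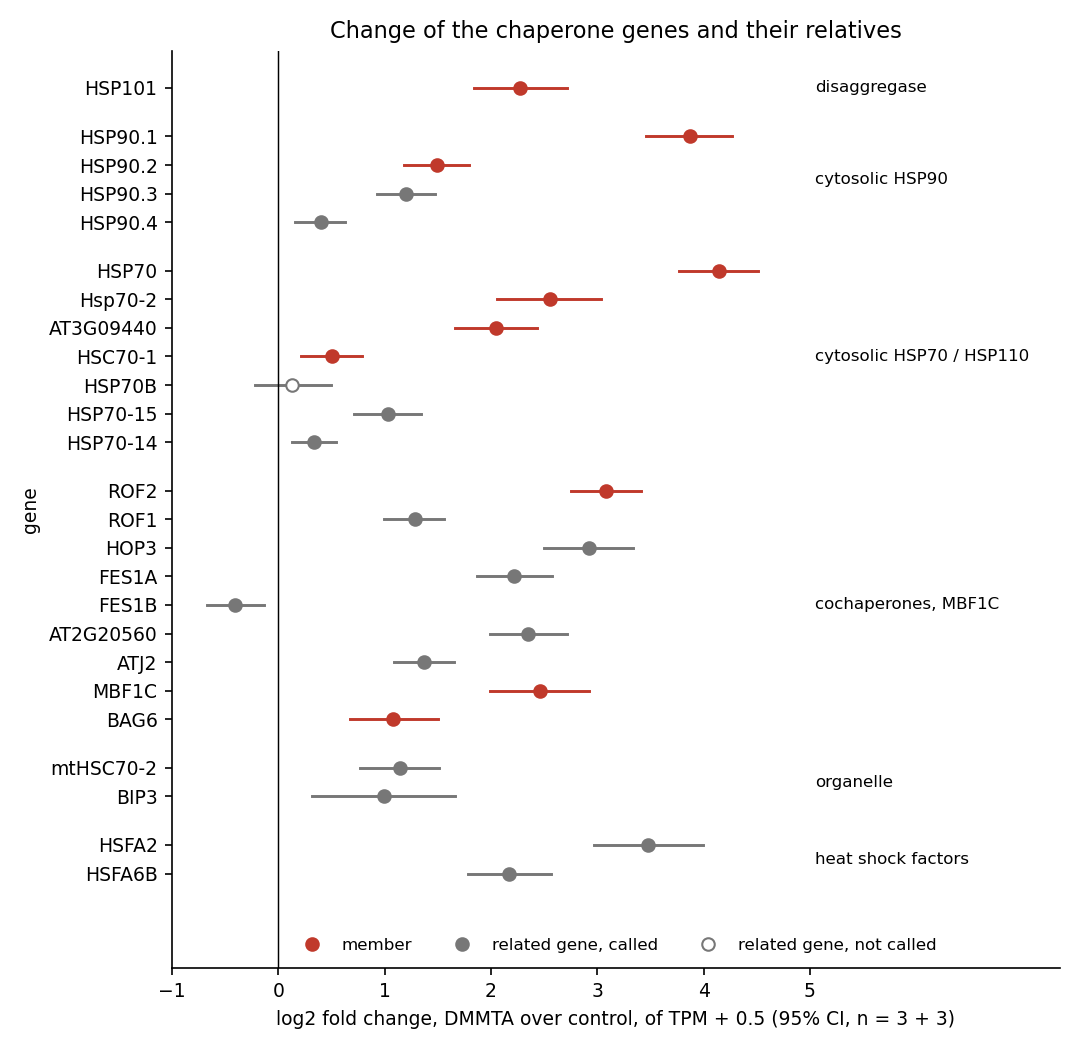
Log2 fold change of DMMTA over control, with 95% confidence intervals from limma (n = 3 libraries each), for the 10 genes (red) and named relatives (grey; open where not called). HSP70, HSP90.1, HSFA2 and ROF2 lie farthest to the right, HSP70B spans 0, and FES1B is the one named gene lower in DMMTA.

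Partners of HSP70 and HSP90 outside the set moved in part. Of 19 cochaperone genes listed, 8 were higher, 1 was lower and 10 were not called, with a median log2 fold change of 0.14. Over all loci tested, 17.4% were higher and 10.5% lower. HOP3, an adaptor that joins HSP70 to HSP90, was at 46.7, 32.2 and 38.4 TPM in DMMTA libraries, against 6.01, 4.003 and 4.22 TPM in control libraries, 8.24-fold apart in the mean (log2 fold change 2.92 ± 0.18 SE). FES1A, a protein that stabilises cytosolic HSP70 in heat, was 4.83-fold higher, with 92.7, 61.2 and 79.2 TPM in DMMTA libraries against 17.5, 15.8 and 15.0 TPM in control libraries. Its relative FES1B was lower, with 16.3, 18.9 and 16.5 TPM in DMMTA libraries against 22.5, 21.2 and 25.3 TPM in control libraries (log2 fold change -0.41 ± 0.11 SE, adjusted p = 0.0299). That call was lost without DMMTA replicate 1 (adjusted p = 0.0951) or 3 (adjusted p = 0.116) and without control replicate 1 (adjusted p = 0.0631) or 3 (adjusted p = 0.0589).

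J-domain proteins deliver clients to HSP70 and stimulate its ATPase. Of 10 listed genes for cytosolic members, 8 were tested and 4 were higher, against 17.4% of all loci tested, with a median log2 fold change of 0.55. AT2G20560 was at 42.3, 32.2 and 40.3 TPM in DMMTA libraries, against 8.12, 7.42 and 5.80 TPM in control libraries (log2 fold change 2.35 ± 0.16 SE). ATJ2, a farnesylated J-domain protein of the DnaJ type, was at 299.6, 243 and 279 TPM in DMMTA libraries, against 121, 101 and 95.5 TPM in control libraries (log2 fold change 1.37 ± 0.12 SE).

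Among 12 genes for chaperones of the same families in organelles, 5 were higher and none was called lower by limma or limma-voom or had an unadjusted p under 0.05 in that direction, with a median log2 fold change of 0.32. The shares over all loci tested were 17.4% higher and 10.5% lower. The mitochondrial mtHSC70-2 was at 118, 87.0 and 106 TPM in DMMTA libraries, against 52.1, 51.7 and 37.0 TPM in control libraries (log2 fold change 1.14 ± 0.16 SE, adjusted p = 0.00116). BIP3, an inducible HSP70 of the endoplasmic reticulum and a marker of the unfolded protein response, had a log2 fold change of 0.99 ± 0.29 SE (adjusted p = 0.0362). The call of BIP3 was lost without DMMTA replicate 1 (adjusted p = 0.114), 2 (adjusted p = 0.0836) or 3 (adjusted p = 0.0688). Without DMMTA replicate 1 or without DMMTA replicate 3 the number higher was 3 of 12.

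Heat shock transcription factors bind the elements searched for above. Of 19 listed, 17 were tested, 8 were higher and none was called lower by limma or limma-voom or had an unadjusted p under 0.05 in that direction, with a median log2 fold change of 0.56. The shares over all loci tested were 17.4% higher and 10.5% lower. HSFA2, itself heat-inducible and able to prolong the expression of chaperone genes, was at 48.6, 29.5 and 50.9 TPM in DMMTA libraries, against 3.19, 2.70 and 4.09 TPM in control libraries, 12.9-fold apart in the mean (log2 fold change 3.48 ± 0.22 SE). HSFA6B was at 4.87, 5.37 and 6.18 TPM in DMMTA libraries, against 1.01, 0.618 and 0.880 TPM in control libraries (log2 fold change 2.17 ± 0.17 SE). The 4 HSFA1 genes, which encode the constitutive master regulators of the heat response, were not called, with log2 fold changes between 0.08 and 0.39. For HSFA1D and HSFA1E all DMMTA libraries lay above all control libraries, as for 27.8% of loci tested. The groups overlapped for HSFA1A and HSFA1B.

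By level per locus, all its coding sequences added up, the order of the 10 genes was HSC70-1, AT3G09440, HSP90.2, HSP70, Hsp70-2, HSP90.1, MBF1C, ROF2, HSP101 and BAG6 in DMMTA, where the ranges of HSP70 and Hsp70-2 overlapped, as did those of Hsp70-2 and HSP90.1. In control it was HSC70-1, AT3G09440, HSP90.2, Hsp70-2, MBF1C, HSP70, HSP90.1, ROF2, HSP101 and BAG6, where the ranges of AT3G09440 and HSP90.2, of MBF1C and HSP70, and of HSP70 and HSP90.1 overlapped. HSP70 thus stood above MBF1C in all DMMTA libraries, while the ranges of the 2 genes overlapped in control. With 1 coding sequence per locus in place of the sum, rescaled, HSP70 had the higher mean in control too. It was at 21.7 TPM there and MBF1C at 15.7 TPM, with ranges still overlapping. In DMMTA HSP70 was then 2nd at 402 TPM, and ROF2 (94.6 TPM) stood above MBF1C (88.4 TPM) with overlapping ranges. The order of these means thus depends on the sum. Together the 10 genes made up 0.377 ± 0.0602% of all transcripts in DMMTA and 0.153 ± 0.0152% in control (SD, n = 3 each), with p = 0.1 in the two-sided exact permutation test, the smallest it can give.

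**Figure D5:**
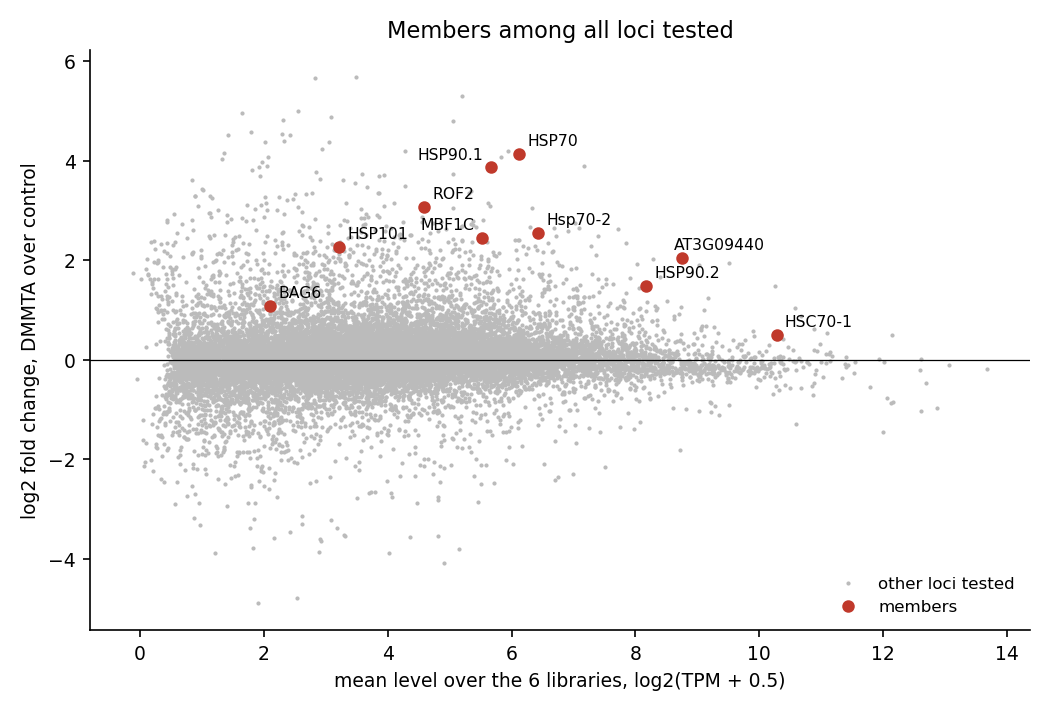
Log2 fold change against mean level, as log2(TPM + 0.5) over the 6 libraries, for all 18813 loci tested (grey) and the 10 genes (red). The 10 genes span the range of levels from BAG6 to HSC70-1 and all lie above 0.

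Within the DMMTA group the 10 genes shared an order of libraries. DMMTA replicate 2 had the lowest value for 10 of 10 genes and DMMTA replicate 1 the highest for 9, against 37.2% and 38.8% of the loci called higher. Within the control group, replicate 3 had the lowest value for 9 of 10 genes and replicate 1 the highest for 9, against 67.9% and 50.6% of the loci called higher. With DMMTA replicate 2 left out, all 10 genes were still called higher. The loci whose log2 levels correlated most with HSP101 over the 6 libraries were AT2G32140, AT3G25545, ATSTE14B, HSP90.2 and FES1A, with Pearson's r between 0.998 and 0.999. This is a description with no test, since the libraries form 2 groups that stand apart. Of the other genes of the set, r with HSP101 was lowest for HSC70-1, at 0.943.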

How the data were processed

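Per the labels' protocols, strand-specific libraries of polyadenylated RNA were made for 3 DMMTA and 3 control samples. RPKM and FPKM per coding sequence were deposited by the authors and are named so, without definition, in the file headers. FPKM served as an alternative. The submitters' processing notes name DESeq2 without version or role. Aligner, counting tool, build and filters: not given in the sources used here. Of 48350 rows per table, 1884 (3.9%) with displaced or emptied cells were left out. RPKM was summed per locus and rescaled to 1000000 per library (TPM). The sum assumes that reads were divided between the coding sequences of a locus, which no source states. Some displaced rows show a read number. Per library, 80 to 89 of the 123 to 128 pairs of identical neighbouring ones held fractions of a read (more than 0.02 from whole). Of the pairs with fractions, 33 to 44 per library gave whole reads when summed. Fractions also stood in 339 to 358 of the 857 to 895 rows without an identical neighbour. They therefore do not settle whether reads were divided within a locus. If reads were counted in full in every row, the sums overstate loci with several coding sequences. Steps between low values gave the depth estimates, and 88.5% to 93.4% of those values lay within 0.2 read of whole. Such reads are not independent molecules.

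The design named limma on log2(TPM + 0.5) over loci reaching 1 TPM in 3 or more libraries (limma 3.58.1, R 4.3.3, intensity trend, no covariates, Benjamini-Hochberg adjustment over all loci tested). In a run of the fit on simulated data, most of the smallest seeded changes were not called, so a gene not called here may still differ. Replicate numbers were not used as a block. Sums and shares were compared by exact permutation. Sequences and coordinates come from the RefSeq annotation of TAIR10.1 by locus identifier, and 26359 of the 26360 nuclear loci have the same number of coding sequences there as in the tables.

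All 10 members are described. From each list of relatives, those named are the 2 with the largest called change in the direction most called loci took and the 1 with the largest called change the opposite way, with HSFA2, HSP90.3, HSP90.4, HSP70B, HOP3, ROF1 and FES1A always named, and the 5 loci most correlated with HSP101. The members and lists were chosen with earlier results of these data known. Genes mentioned beyond this rule were chosen after their values were seen. Figures were drawn with matplotlib 3.10.9.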

Additional observations from a re-analysis of the deposited data

How the results depend on the processing

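Of 188 refits of single members, 183 kept the direction and the call, 5 lost the call and none changed direction; the 5 are all of HSC70-1. Leaving out 1 library put its log2 fold change between 0.40 and 0.61, and it was 0.43 without both replicate 3 libraries and 0.44 without both replicate 1 libraries, not called in either. BAG6 had no value with a filter at 5 TPM, and Hsp70-2 none of its own when paralogs were summed. That setting added Hsp70-2 to HSC70-1, although neither shares an exact 50-base stretch of coding sequence with another locus. Over all loci, leaving out 1 library gave 2076 to 3138 higher and 1132 to 1577 lower. The counts were 1843 and 847 without both replicate 3 libraries, 1997 and 1025 without both replicate 1 libraries, 1989 and 923 at an adjusted p under 0.01, and 1165 and 610 at 2-fold or more. Same-numbered libraries correlated in their deviations at 0.24, 0.33 and 0.08, so the numbers are not shown to pair them, although every library correlated best with its own number, a hint from the data and not from the design; with the replicate number as a block 3539 loci were higher and 2242 lower, and it changed no member's call. Without 1 library, 1 to 2 HSP70 and HSP110 relatives, 1 to 2 HSP90 relatives and 3 to 5 organelle chaperones were higher, and 0 to 2 cochaperones lower. Without both replicate 1 or both replicate 3 libraries, at an adjusted p under 0.01 and at 2-fold, 1 HSP70 or HSP110 and 1 HSP90 relative were higher and 0 cochaperones lower. Organelle chaperones numbered 3 without both replicate 1 libraries, 3 at an adjusted p under 0.01 and 1 at 2-fold, and 5 cochaperones were higher at 2-fold. Lower cochaperones numbered 2 with median-of-ratios scaling, nuclear loci only and limma-voom; with paralogs summed, 0 HSP90 relatives remained as separate loci. With 300 bases before the annotated gene start, 1 member held a run of 3 blocks and 3 a pair, against 5 and 8 with 500 before the start codon. The design fixed neither length, and the 500-base window was chosen after annotated gene starts were seen. The comparison of the windows was also added after seeing the data. With the coding sequence of highest mean in place of the sum, an alternative for shares and order added after seeing the data, the HSP70 pool held 15.0% AT3G09440 and 20.0% HSP70 in DMMTA, against 8.44% and 2.55% in control, and 83.0% HSC70-1 in control. The HSP90 pool then held 24.2% HSP90.1, 30.7% HSP90.2 and 42.1% HSP90.3 in DMMTA, against 4.87%, 33.2% and 55.3% in control. Fits that leave out libraries have fewer samples; the cause of the other differences was not tested. Each member had about 542 estimated reads or more in every library, if reads were divided between the coding sequences of a locus. If they were counted in full in every row, the lowest estimates of HSP101 (797 reads) and MBF1C (712 reads), with 2 coding sequences each, are overstated.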
